A study of Danio rerio with 4 samples.

Results

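The genes described here are the islet hormones and islet transcription factors of the zebrafish pancreas, compared between uhrf1 mutant and wildtype larvae. They were chosen by name: every probe set annotated with exactly 1 gene that was an islet hormone (ins, gcga, gcgb or a somatostatin gene starting with sst1, sst2 or sst3), a prohormone convertase (pcsk1, pcsk2) or an islet factor (pdx1, neurod1, pax6b, isl1a, nkx2.2a, mnx1, arxa). This gave 10 probe sets of 9 genes, out of 15502 probe sets and 8793 genes tested. No single-gene probe set carried the names gcgb, mnx1, pcsk1, pcsk2 or arxa, nor a somatostatin other than sst1.1 and sst2 under this rule. All 10 were tested and none was removed for a low value.

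Islets are clusters of endocrine cells in the pancreas. Beta cells secrete insulin, which lowers blood glucose, alpha cells secrete glucagon, which raises it, and delta cells secrete somatostatin, which restrains both. Each hormone is cut from a precursor by convertases inside secretory granules. The islet factors are shared with other tissues: Neurod1, Pax6, Isl1 and Nkx2.2 also act in the brain, spinal cord or retina, and Pdx1 acts in the early pancreas and duodenum as well as in beta cells. A level in a whole larva therefore sums over all these tissues, and fewer cells of a type cannot be told apart from less RNA per cell.

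The study had 2 samples of uhrf1 mutant larvae (replicates 1 and 2) and 2 of wildtype larvae (replicates 1 and 3), all taken at 120 hours post fertilization and hybridised to Affymetrix zebrafish arrays. For most of the study's experiments the labels name progeny of carriers of the hi272 allele of uhrf1, the gene for a protein that maintains DNA methylation after replication. They do not say whether the wildtype larvae were siblings of the mutants, nor whether a sample was a pool of larvae. Whether the replicates were separate clutches is also unstated, and the p-values cover the spread between these 4 samples alone, which may be technical. Intensities below are the deposited values on a linear scale. A log2 change is the mutant mean minus the wildtype mean of log2(intensity + 1), and a gene was called at a limma p under 0.05 after Benjamini-Hochberg adjustment over all probe sets.

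Over the whole array limma called 233 probe sets, 131 higher and 102 lower, and the median log2 change was -0.04. The 18 hybridisation controls, transcripts added in fixed amounts, were on average 0.49 lower on the mutant arrays (log2 change -0.49). With arrays scaled on them the median change became 0.45, with 5127 higher and 96 lower calls, so that 98.2% of calls were higher against 56.2% as deposited. Changes below are thus relative to most other probe sets. The uhrf1 transcript read 41.1 and 26.3 in mutants and 47.4 and 41.5 in wildtype larvae, and changed by -0.42 ± 0.23 (SE, log2; limma adjusted p = 0.56).

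None of the 10 islet probe sets passed the test, where 1.50% of all probe sets did (0.845% higher and 0.658% lower). An unadjusted limma p under 0.05 was reached by 3 of them, gcga in the higher direction and pax6b and isl1a in the lower, against 11.9% of all probe sets (5.10% higher and 6.84% lower). The mutant and wildtype arrays did not overlap for 5 of the 10, of which 4 were lower and 1 was higher. Over all probe sets 41.3% did not overlap, 26.3% lower and 14.9% higher, so for the 10 this share is near the background. Their median log2 change was -0.15, with 8 of 10 below 0, beside 9311 of 15502 for all probe sets.

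**Figure D1:**
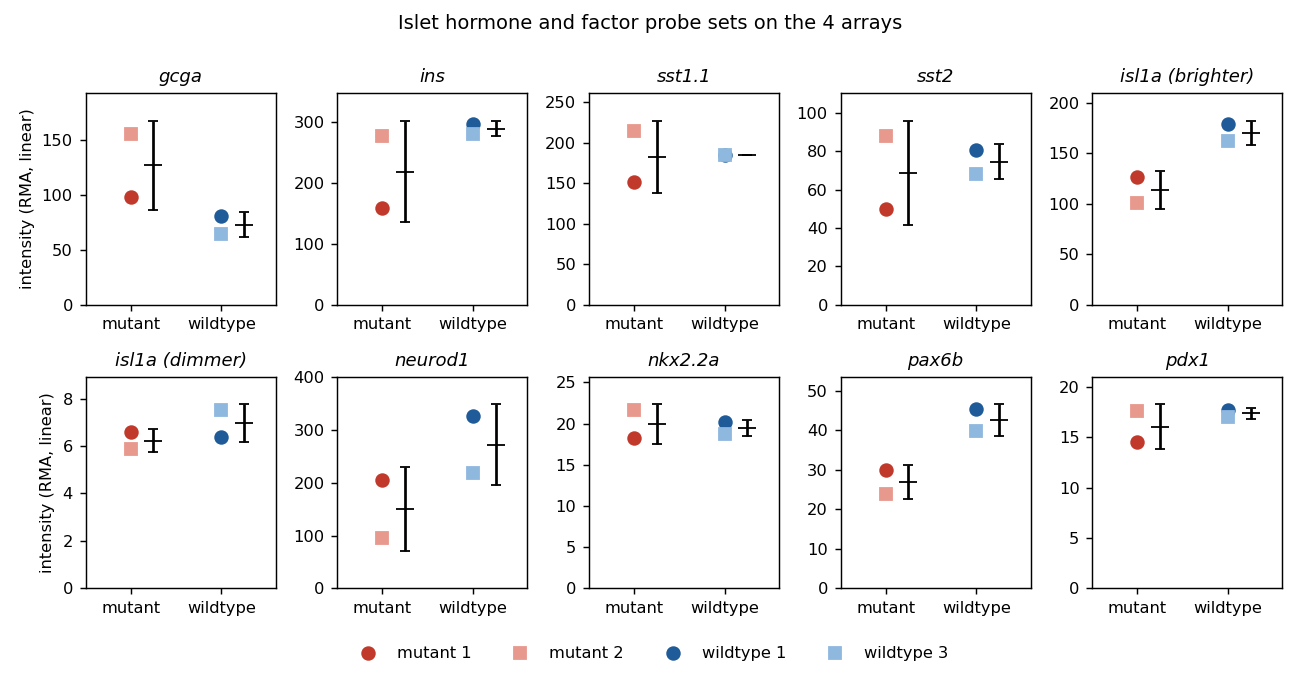
Deposited intensity (linear scale, starting at 0) of each islet probe set on the 2 mutant arrays (red) and the 2 wildtype arrays (blue), with the mean and SD of each group as black marks. Both mutant arrays lie above both wildtype arrays for gcga and below them for ins, neurod1, pax6b and the brighter isl1a probe set, and the groups overlap for the rest.

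Among the hormones, gcga, which encodes a glucagon precursor, had the highest value in mutants relative to wildtype. It read 98.2 and 155 in mutants and 80.7 and 64.6 in wildtype larvae. Both mutant arrays were above both wildtype arrays. The log2 change was 0.77 ± 0.25 (SE; 95% interval 0.17 to 1.37), with an unadjusted p of 0.020 and an adjusted p of 0.29 by limma. Leaving out mutant replicate 2 gave 0.44 and leaving out mutant replicate 1 gave 1.096, with limma adjusted p-values of 0.44 and 0.12. Scaled on the hybridisation controls, gcga changed by 1.26 and was called, with a limma adjusted p of 0.032. That scaling called 5223 of all 15502 probe sets.

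The insulin gene ins, the beta cell hormone, read 160 and 278 in mutants and 298 and 281 in wildtype larvae. Mutant replicate 2 was just under the lower wildtype array, while mutant replicate 1 stood apart below all the others. The log2 change was -0.46 ± 0.26 (SE; 95% interval -1.098 to 0.19, limma adjusted p = 0.59). It rested on 1 array, being -0.06 when mutant replicate 1 was left out and -0.85 when mutant replicate 2 was, and it was 0.035 when scaled on the controls.

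The somatostatin genes sst1.1 and sst2, read in whole larvae, did not separate the groups. For sst1.1 the mutants read 151 and 214 and the wildtype arrays 184 and 184, so that the wildtype values lay between the mutant ones. For sst2 the mutants read 49.7 and 88.0 and the wildtype arrays 81.0 and 68.0, again with wildtype between. The log2 changes were -0.04 ± 0.19 (SE; 95% interval -0.51 to 0.43) and -0.16 ± 0.28 (SE; -0.84 to 0.51), with limma adjusted p-values of 0.98 and 0.90. Both signs turned without mutant replicate 1, to 0.21 and 0.24.

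Of the transcription factors, pax6b gave the smallest p of the 10 probe sets. Pax6b is one of a pair of zebrafish Pax6 proteins, required for endocrine cell differentiation and, with Pax6a, for eye development. It read 30.0 and 24.0 in mutants and 45.4 and 39.9 in wildtype larvae, with both mutants below both wildtype arrays and a spread within each group smaller than the gap between them. The log2 change was -0.65 ± 0.16 (SE; 95% interval -1.05 to -0.24), with an unadjusted p of 0.0077 and an adjusted p of 0.18 by limma. With any 1 array left out it lay between -0.80 and -0.49, and scaled on the controls it was -0.16.

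The neurod1 gene encodes a basic helix-loop-helix factor of endocrine cells that is also strongly expressed in neurons and photoreceptors. It read 206 and 94.7 in mutants and 326 and 219 in wildtype larvae. The groups did not overlap, but mutant replicate 1 and wildtype replicate 3 were close, and the arrays of each group were far apart. The log2 change of -0.93 ± 0.38 (SE; 95% interval -1.86 to 0.01) was the most negative of the 10 and had the largest standard error, with an limma adjusted p of 0.42. Leaving out mutant replicate 1 gave -1.49, leaving out mutant replicate 2 gave -0.37, and it was -0.44 when scaled on the controls.

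Isl1a, a LIM-homeodomain factor of islet cells, motor neurons and retinal neurons, was measured by a pair of probe sets that gave different readings. The brighter one read 127 and 100 in mutants and 179 and 162 in wildtype larvae, without overlap. Its log2 change was -0.59 ± 0.16 (SE; 95% interval -0.99 to -0.19, unadjusted p = 0.012, adjusted p = 0.22 by limma). Its identifier ends in _s_at, which Affymetrix gives to probe sets that can match more than 1 transcript. The dimmer one ranged from 5.88 to 7.52, whereas the dimmest 25% of probe sets end at 12.7, and its change of -0.14 ± 0.15 (SE) says little about isl1a.

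The pancreatic factor pdx1, which directs pancreas formation and insulin transcription, read 14.5 and 17.6 in mutants and 17.8 and 17.0 in wildtype larvae. The factor nkx2.2a, required for beta cells in mice and active in the ventral spinal cord, read 18.3 and 21.6 in mutants and 20.2 and 18.8 in wildtype larvae. For both genes the groups overlapped. The log2 changes were -0.11 ± 0.15 (SE; 95% interval -0.48 to 0.25) for pdx1 and 0.03 ± 0.15 (SE; -0.33 to 0.39) for nkx2.2a, with limma adjusted p-values of 0.86 and 0.98. Both read close to the dim end of the array, where RMA compresses differences, so the intervals bound the change of the measured signal only. With arrays scaled on the hybridisation controls nkx2.2a changed by 0.52 and was called (limma adjusted p = 0.044), near the 0.45 of all probe sets there.

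**Figure D2:**
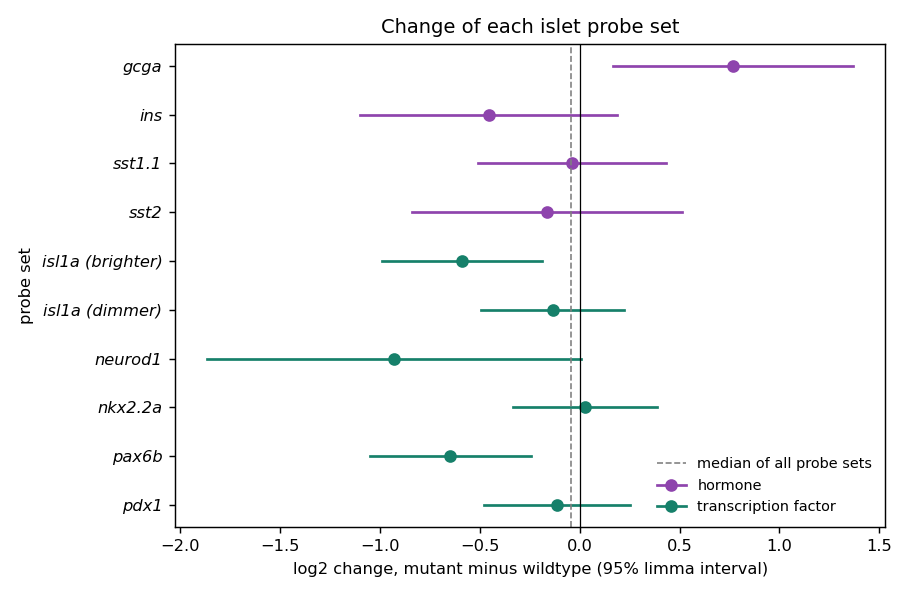
Log2 change (mutant minus wildtype) of each islet probe set with its 95% interval from limma, hormones in purple and transcription factors in green, and the median of all 15502 probe sets as a dashed line. The intervals of gcga, pax6b and the brighter isl1a probe set leave out 0 before adjustment, and none of the 10 passed after it.

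The mutant arrays differed from each other more at the hormones and neurod1 than at most probe sets, a pattern noticed after the values were seen. All 4 hormones read higher on mutant replicate 2 than on mutant replicate 1, by 1.74-fold for ins, 1.77-fold for sst2, 1.58-fold for gcga and 1.42-fold for sst1.1. Differences at least as large in that direction were found in 1.06% of all probe sets for ins and in 4.15% for sst1.1. The factors neurod1, pax6b and isl1a (brighter probe set) went the other way and read higher on mutant replicate 1, by 2.18-fold, 1.25-fold and 1.26-fold, while pdx1 and nkx2.2a read higher on mutant replicate 2, by 1.22-fold and 1.18-fold. Differences at least as large in the same direction were found in 0.239% of all probe sets for neurod1, but in 12.6% for pax6b and 11.7% for isl1a (brighter probe set). For pdx1 and nkx2.2a the shares were 16.9% and 20.0%. The dimmer isl1a probe set differed by -0.14 (log2, mutant replicate 2 minus replicate 1), with a share of 26.1%. The median absolute log2 difference between the mutant arrays was 0.73 for the 4 hormones and 0.17 for all probe sets, and between the wildtype arrays it was 0.17 and 0.16. In the related lists 6 of 13 prohormone and granule genes and 13 of 25 other islet factors and neurod1 relatives were higher on mutant replicate 2. Their median log2 differences were -0.11 and 0.05. Of the 4 further hormone genes named below 3 were higher on mutant replicate 2, with a median of 0.23. The remaining gene, insb, was under the dim limit and differed by -9.4e-04. Of the lens genes 2 of 7 were higher on mutant replicate 2, with a median of -0.27. The share of all probe sets higher on that array was not counted, so these list counts have no background. What sets the mutant arrays apart was not tested.

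**Figure D3:**
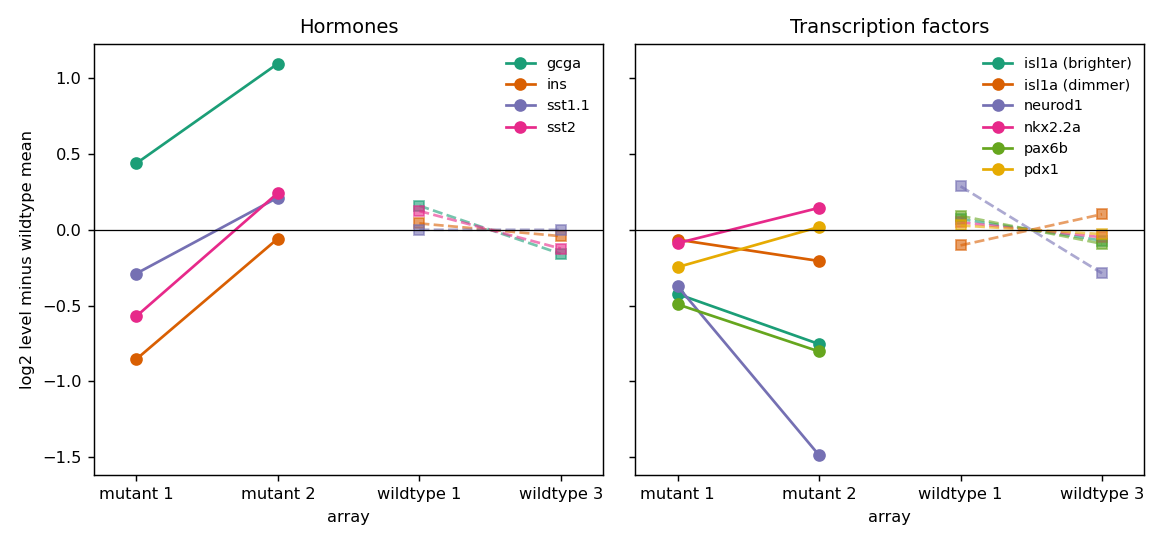
Log2 level of each islet probe set on each array, minus the wildtype mean of that probe set; lines only join values of the same probe set within a group. All 4 hormones are higher on mutant 2 than on mutant 1 (gcga from 0.44 to 1.096, ins from -0.85 to -0.06), whereas neurod1, pax6b and isl1a are lower on mutant 2 (neurod1 from -0.37 to -1.49) and pdx1 and nkx2.2a are higher.

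None of the other hormone pathway genes in this paragraph was called. Over all genes limma called 2.00%, so 0 calls in lists this short are near the background. An unadjusted limma p under 0.05 was reached by 11.9% of all probe sets, a share per probe set, whereas the lists hold 1 probe set a gene. In the list of prohormone processing and granule genes limma called 0 of 13 measured genes, and 0 had an unadjusted p under 0.05, with a median log2 change of -0.06. Its smallest p-values were those of snap25b, a vesicle fusion protein gene, at -0.33 ± 0.14, and of the secretogranin gene scg3, at -0.30 ± 0.15 (SE, log2), followed by scg5 and chga. Among 4 further hormone genes, adcyap1b, nucb2a, sst6.2 and insb, 0 passed in limma and the changes lay between -0.18 and 0.06. The somatostatin gene sst6.1, outside the list and named after its values were seen, read 117 and 126 in mutants and 148 and 150 in wildtype larvae. It changed by -0.30 ± 0.13 (SE, log2; limma adjusted p = 0.45). The second insulin gene insb read 7.61 to 7.72 on all arrays, under the dim limit of 12.7. In the list of hormone receptors and glucose handling genes 0 of 13 passed in limma, with a median of -0.14 and 3 at an unadjusted p under 0.05. These were igfbp1a, whose product binds insulin-like growth factors and is repressed by insulin in mammals, at 0.99 ± 0.23, the mitochondrial enzyme gene pck2, at -0.57 ± 0.20, and the somatostatin receptor gene sstr5, at -0.38 ± 0.14 (SE, log2). The insulin receptor gene insrb came next at -0.29 ± 0.14.

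A further list held other islet factors and also the neurod1 relatives neurod2, neurod4, neurod6a and neurod6b. Of its 25 measured genes 1 of these relatives passed, in the lower direction, and 24 genes did not. At an unadjusted limma p under 0.05 the list had 7 genes, all lower, and its median was -0.17 (log2), with 20 values below 0. That p was reached by 6.84% of all probe sets in the lower direction and 5.10% in the higher, and 9311 of 15502 lay below 0. These shares are per probe set, whereas the list holds 1 probe set a gene, and per-gene shares were not computed. Calls were more frequent per gene (2.00%) than per probe set (1.50%). Over all genes 2.00% were called, 1.03% higher and 0.967% lower. The called gene was neurod6b, a relative of neurod1 that acts in neurons, which fell by 0.99 on the log2 scale (log2 change -0.99 ± 0.15 SE, limma adjusted p = 0.041). It missed the threshold with any 1 array left out (limma adjusted p between 0.065 and 0.12), with median centring (0.056) and with a pseudocount of 16 (0.090). The proneural factor ascl1b, which starts endocrine differentiation in zebrafish, changed by -0.87 ± 0.18, the pioneer factor gene foxa1 by -0.52 ± 0.13 and neurod2 by -0.48 ± 0.13 (SE, log2), and their adjusted p by limma was 0.099, 0.18 and 0.20. The paralogue of pax6b, pax6a, read 75.6 and 48.8 in mutants and 88.8 and 109 in wildtype larvae, and changed by -0.69 ± 0.24 (SE, log2; limma adjusted p = 0.32). It was named for its relation to pax6b, after its values were seen. Scaled on the hybridisation controls the median of this list was 0.32, below the 0.45 of all probe sets.

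Genes of the other tissues that use the same factors were read beside neurod1, pax6b and isl1a. As background for their counts, 2.00% of all genes were called, 1.03% higher and 0.967% lower. An unadjusted limma p under 0.05 was reached by 11.9% of all probe sets, 5.10% higher and 6.84% lower. Of all 15502 probe sets 9311 lay below 0. The unadjusted and below-0 shares are again per probe set, not per gene as in the lists. In the retina list 1 of 24 genes passed, in the lower direction, and 13 had an unadjusted limma p under 0.05, all lower. Of the 24 values 23 lay below 0, and the median was -0.50 in log2 (-0.01 when scaled on the controls). The summed intensity of the list was 8922 and 8870 in mutants and 13266 and 11097 in wildtype larvae, so both mutants were below both wildtype arrays. The called gene was otx2b, an eye and brain homeodomain factor, at -1.11 ± 0.18 (SE, log2; limma adjusted p = 0.049). It missed the threshold when mutant replicate 1, mutant replicate 2 or wildtype replicate 1 was left out (limma adjusted p = 0.12, 0.15 and 0.077), with median centring or quantile normalization (0.056 and 0.054) and with a pseudocount of 16 (0.14). The photoreceptor genes rbp3, rcvrn2 and gnat2 changed by -1.52 ± 0.27, -0.87 ± 0.16 and -0.76 ± 0.15 (SE, log2). In the lens list limma called 0 of 7 genes, and 4 had an unadjusted p under 0.05 (bfsp2, crybb1, crygm2c and cryba4), with a median of -0.70. The summed lens intensity was 3961 and 2907 in mutants and 6453 and 5487 in wildtype larvae. In the motor neuron and interneuron list limma called 0 of 22, and 2 had an unadjusted p under 0.05, in opposite directions (elavl4 at 0.52 and lhx5 at -0.36), with a median of -0.09, and the next genes were tlx3b and gad1b. The lowest reading was 6.92 in the retina list, 10.1 in the lens list and 5.79 in the motor neuron and interneuron list. Each lay under the dim limit of 12.7. The part of the retina and lens values in those of pax6b, isl1a and neurod1 was not tested.

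Gut endocrine cells also use Neurod1 and Pax6. In the enteroendocrine list, made of peptide and serotonin synthesis genes, 6 were measured. Of these 1 passed, in the lower direction, and the median was -0.16 (log2), where 0.967% of all genes were called lower. A whole-larva level does not tell gut endocrine cells from neurons that express such genes. The peptide gene vipb read 20.3 and 22.5 in mutants and 38.3 and 41.6 in wildtype larvae, and changed by -0.87 ± 0.14 (SE, log2; limma adjusted p = 0.049). A dimmer probe set of vipb changed by -0.16 ± 0.13, and the call was lost with any 1 array left out (limma adjusted p between 0.070 and 0.17), with median centring or quantile normalization (0.063 and 0.062) and with a pseudocount of 16 (0.105). The gut hormone gene pyya changed by 0.53 ± 0.13 (SE, log2; limma adjusted p = 0.17), with both mutants above both wildtype arrays. The serotonin synthesis gene tph1b and the neuropeptide gene nmbb changed by -0.22 and -0.47 and did not pass.

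The exocrine pancreas, the other compartment of the organ, set a scale for these values. Of 18 measured genes of the exocrine list, 16 passed, all in the lower direction, and the median was -3.31 (log2). Over all genes 0.967% were called lower. The 4 with the smallest p were amy2a, cpb1, sycn.2 and ela3l, and the other called genes were pla2g1b, ctrb.2, cpa1, prss1, ctrl, ctrb.1, ela2, cel.1, cpa5, cela1.1, cpa4 and aqp12. Amylase, amy2a, read 49.3 and 37.7 in mutants and 1546 and 1454 in wildtype larvae. Read by the brightest probe set of each gene, the 16 called exocrine genes changed by -5.09 to -1.93. The upper ends of their 95% intervals were at or below -1.38. That bound covers called genes of this list only, and passing the call itself favours intervals far from 0. Outside the list the amylase-like gene amy2al1 was called at -1.08 ± 0.13 (SE, log2; limma adjusted p = 0.019). The elastase genes cela1.5 and cela1.6, also outside it and called, changed by -2.21 and -2.79. The 2 genes of the list that did not pass, ela2l and ptf1a, had intervals from -4.18 to 0.40 and from -0.65 to -0.02. Both overlapped the intervals of ins, sst1.1 and sst2. A second, dimmer probe set of aqp12, also called, changed by -1.65, with an interval from -2.24 to -1.06. A second, dimmer probe set of cpa4 was not called (limma adjusted p = 0.10) and changed by -2.57, with an interval from -3.86 to -1.28. The lower ends of the intervals of the islet hormones were -1.098 for ins, -0.84 for sst2, -0.51 for sst1.1 and 0.17 for gcga. None reached -1.38, although the ins interval overlapped that of the second aqp12 probe set and held the amy2al1 change of -1.08. Among the islet factors only the interval of neurod1, from -1.86, reached below -1.38. All these intervals rest on variances that limma drew toward those of all probe sets. For ins the p was 0.13 by moderated limma and 0.37 in the unmoderated model, which called 0 genes of the exocrine list. Whether hormone intervals from their own spread alone would stay above -1.38 was not tested. The difference between hormone and exocrine changes was not itself tested. The mutant arrays, which differed at the hormones, were alike in the exocrine sum, at 3811 and 3694 intensity units (30161.5 and 39840 in wildtype). This sum weights the brightest genes most. Single exocrine genes differed between the mutant arrays, such as ela2l (185 and 45.6) and aqp12 (26.5 and 41.7). Of the 18 genes 8 read higher on mutant replicate 2, and the median log2 difference was -0.02. The acinar factor ptf1a, which did not pass and was named after its values were seen, changed by -0.34 ± 0.13 (SE, log2). It read 16.2 and 16.2 in mutants and 20.5 and 21.0 in wildtype larvae. Like pdx1 and nkx2.2a it was close to the dim end of the array, so its change is not comparable in size with those of the bright enzyme genes.

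**Figure D4:**
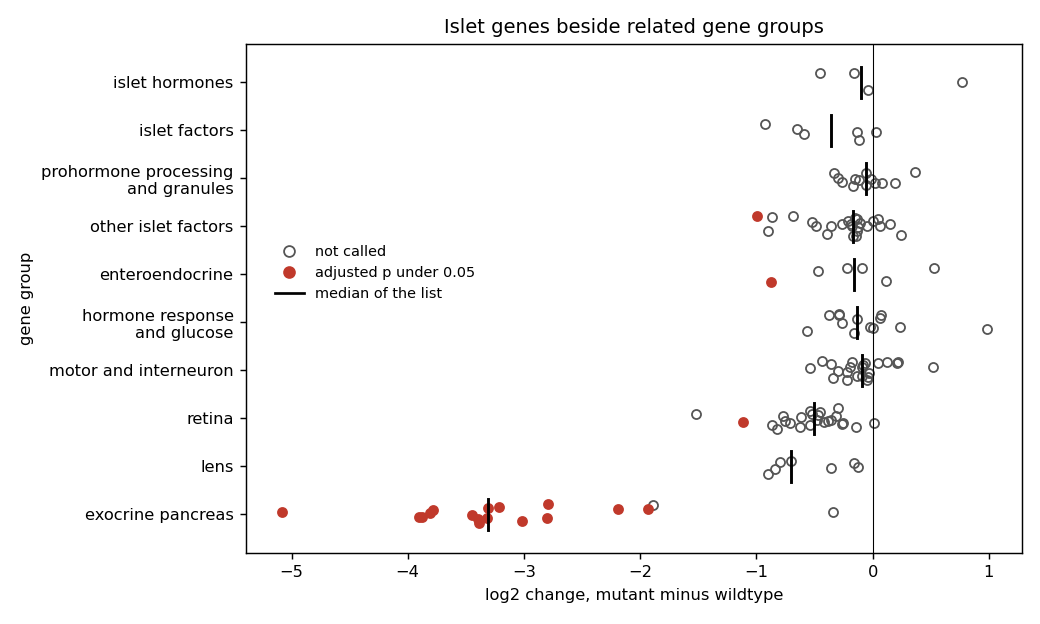
Log2 change (mutant minus wildtype) of each islet probe set and of each measured gene of 8 related groups; filled red points passed at an adjusted p under 0.05, open points did not, and black bars are medians. The islet hormones and factors lie between -0.93 and 0.77, while the 16 called genes of the exocrine list lie between -5.09 and -1.93. The exocrine genes that were not called, ela2l and ptf1a, lie at -1.89 and -0.34, and ptf1a is within the islet range.

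The genes whose profile over the 4 arrays was most like that of pax6b were isl1a, kansl3 and slc1a3a, at distances of 0.067, 0.072 and 0.086. Likeness was the Euclidean distance between log2 values centred on each gene's mean, over 8793 genes. The nearest, isl1a, is itself one of the islet factors and was represented by its brighter probe set. For neurod1 the nearest were zic5, zgc:193593 and ypel3, at distances of 0.30, 0.31 and 0.38, so that no gene matched its uneven profile as closely. With 4 arrays many genes share any profile, and these distances are a description.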

How the data were processed

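The deposited intensities were made by the authors with RMA, per the submitters' processing notes, and given per probe set on a linear scale. For RMA, software, version and settings were not given in the sources used here. Hours were taken as the unit of age, although the treatment protocol says days. Of the 15617 probe sets deposited, 115 array controls were set aside. Gene names came from a platform annotation and were updated through the Entrez ID, and no genome coordinates or sequences were used here.

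The fit was made on log2(intensity + 1) with limma 3.58.1 (R 4.3.3) and had mutant against wildtype as the only term, on all 4 arrays (2 residual and 4.04 prior degrees of freedom). P-values are two-sided limma p-values, adjusted by Benjamini-Hochberg over 15502 probe sets. Groups are means of 2 arrays, and their number limits the precision. For the related lists the probe set with the highest mean stood for its gene. Of 227 listed genes 130 were measured, not counting the islet genes themselves. Named genes were the islet genes, uhrf1, the up to 4 genes with the smallest p in each list, any that passed, and the 3 nearest profiles of neurod1 and pax6b. Pax6a, ptf1a, ela2l, sst6.1, amy2al1, cela1.5 and cela1.6 are outside this rule. The members and lists were chosen with earlier results of these data known.

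Tested on simulated data for this comparison with 15502 probe sets, the fit found 27 of 62 changes of size 1 (log2), 65 of 66 of size 2 and 72 of 72 of size 4, with 8 false calls. These rates need not hold for the islet hormones and neurod1, at which the mutant arrays differed more than at most probe sets. Alternatives were other scalings, filters, pseudocounts, variance priors and thresholds, and leaving out each array.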

Additional observations from a re-analysis of the deposited data

How the results depend on the processing

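No islet probe set was called as deposited, with quantile normalization, median centring, the dimmest 25% of probe sets removed (9 islet probe sets left), a pseudocount of 16, an intensity-dependent robust prior, an unmoderated limma model, a threshold of 0.1 or any 1 array left out. At an unadjusted limma p under 0.05 these gave 0 to 4 islet probe sets, and the unmoderated model gave 0. Scaling on the hybridisation controls called 2 of the 10, where it called 5223 of all 15502 probe sets. Signs turned under that scaling for ins (0.035), sst1.1 (0.45), sst2 (0.33), the dimmer isl1a probe set (0.35) and pdx1 (0.38), since it added 0.49 to every change. The sign of sst1.1 also turned with median centring (0.014). With 1 array left out, where a lone array is assumed to vary like the others, changes ranged from -0.29 to 0.21 for sst1.1, from -0.57 to 0.24 for sst2, from -0.088 to 0.14 for nkx2.2a and from -0.25 to 0.019 for pdx1. The signs of gcga, neurod1, pax6b and the brighter isl1a probe set held under all these settings.

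Over the whole array 233 probe sets were called as deposited, 5223 scaled on the controls, 80 with a pseudocount of 16, 394 with the robust prior, 419 at a threshold of 0.1, 0 with the unmoderated model (1298 at an unadjusted p under 0.05), and 154 to 310 with 1 array left out. Of the related list genes 19 were called as deposited, 37 scaled on the controls, 12 with a pseudocount of 16, 0 with the unmoderated model and 14 to 19 with 1 array left out. Apart from the added shift, the causes were not tested. No paired analysis was possible because the groups share only 1 replicate number. The small number of arrays and intensities near the dim limit bound what could be detected for pdx1, nkx2.2a and the dimmer isl1a probe set.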
